A study of Homo sapiens with 240 samples.

Results

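Phenformin was given to AMPK WT HEK 293T cells for 2 h and for 4 h, and the messenger RNA of each set of cells was compared with that of DMSO-treated cells of the 0 h point. The samples are 3 phenformin libraries at 2 h, 3 phenformin libraries at 4 h and 3 DMSO libraries at 0 h, 9 of the 240 libraries of the series, chosen by the treatment, time and genotype written in their column titles. HEK 293T is a human embryonic kidney line. The whole study asked how AMPK and its substrate FNIP1 act on lysosomal and mitochondrial gene expression, using the AMPK activator 991 and the mitochondrial poisons CCCP, phenformin and rotenone (Rot in the labels) in WT and AMPK KO cells, among other lines. Also used for comparison here are AMPK KO cells given phenformin for 2 h or 4 h or DMSO at 0 h, and WT cells given Rot, CCCP or 991 for 2 h or 4 h or phenformin for 8 h, with 3 libraries in each group. All of these cells grew in DMEM with fetal bovine serum, and polyadenylated RNA was sequenced.

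Phenformin is a biguanide that inhibits complex I of the mitochondrial respiratory chain, the enzyme that passes electrons from NADH to ubiquinone. Less respiration raises the ratio of AMP to ATP, and AMP binding activates AMPK, the kinase that turns down ATP-consuming synthesis and turns up catabolism. Mitochondrial damage is also reported to the cytosol through the integrated stress response: stress kinases phosphorylate the initiation factor eIF2α, most translation falls, and translation of the transcription factor ATF4 rises, which then drives genes of amino acid supply together with CHOP, the product of DDIT3. Cells with poisoned mitochondria take up and burn more glucose by glycolysis, and the glucose sensor MondoA, which transcribes TXNIP and ARRDC4, is known to respond to glucose phosphates.

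The 3 WT libraries of phenformin at 2 h carry conflicting labels. Their free-text description and the first part of their titles give 991. The library code in the title and the treatment tag give phenformin, which is followed here. The 3 WT libraries of CCCP used as 4 h have a conflict of time in their titles. The first part of the title gives 16 h and the library code gives 4 h, which is followed here. DMSO was sampled at 0 h, so time in culture and handling cannot be told apart from the drug. The labels used here give no dose and do not say whether the WT and KO lines are clones. They also do not say whether replicates are separate cultures, so p-values measure the spread between libraries. Unless a fit of only the groups compared is stated, that spread was pooled over all AMPK WT and KO groups in the fit. It is therefore not the spread of the groups compared alone. In bulk RNA, fewer cells of a type and less RNA per cell cannot be told apart.

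Among markers of the line, VIM had 218 to 247 TPM and GATA3 6.51 to 7.82 TPM over the 9 libraries. Others were low: PAX2 had 0.276 to 0.679 TPM, NEFH at most 0.236 TPM and LHX1 at most 0.0840 TPM, while KRT19 was listed at 0. Of 21 markers of other cell types, 4 passed the filter on low values, and the summed level of the 21 ran from 8.01 to 9.95 TPM in phenformin at 2 h, from 6.76 to 8.32 TPM in phenformin at 4 h and from 10.8 to 11.6 TPM in DMSO. The highest of them was COL1A1, at 4.00 to 5.61 TPM, while HBB and KRT1, which mark red cells and skin, were listed at 0. Deposited TPM sums per library ran from 403355 to 407211, with 11879 to 12763 genes at 1 TPM or more, and sequencing depth is unknown from TPM. The library numbered 1 stood apart in all 3 groups. Its NEAT1 level, a nuclear long noncoding RNA, was 21.8 TPM in phenformin at 2 h, 17.9 TPM in phenformin at 4 h and 71.1 TPM in DMSO, against 4.31 and 5.95, 2.70 and 3.19, and 29.1 and 47 TPM in the other libraries of these groups. Its part in the results was not tested beyond leaving these libraries out.

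Sequences near the starts of 4 of the genes listed here hold elements that these regulators are known to read. The first 3 lines give promoter stretches of ASNS (chr7:97872443-97872502, minus strand), ATF3 (chr1:212565190-212565249, plus strand) and CEBPG (chr19:33374045-33374104, plus strand), and the capitals mark TGATGNAA, the composite element bound by ATF4 with a C/EBP partner. The last line gives ARRDC4 (chr15:97960466-97960525, plus strand), and its capitals mark the E-box CACGTG, the core of the site bound by MondoA with its partner MLX. All 4 are shown because their genes belong to the groups described below, and all come from RefSeq on GRCh38.p14.
ASNS: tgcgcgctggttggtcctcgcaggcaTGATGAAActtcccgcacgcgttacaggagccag
ATF3: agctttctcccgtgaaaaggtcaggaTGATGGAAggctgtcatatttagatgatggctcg
CEBPG: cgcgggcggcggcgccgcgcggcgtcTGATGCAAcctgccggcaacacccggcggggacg
ARRDC4: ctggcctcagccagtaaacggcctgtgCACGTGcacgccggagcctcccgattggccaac
On either strand of the promoter window, which runs from 250 bases before to 50 bases after a start, TGATGNAA lay in 10 of the 54 promoters (18.5%) that RefSeq lists for 34 of the 43 integrated stress response genes, against 1270 of all 35116 promoters (3.62%). The match lay in 10 genes, and of DDIT4, CHAC1, STC2, DDIT3 and SESN2, which had the largest rises of the list, CHAC1 alone held it in this window. CACGTG lay in 7 of the 19 promoters (36.8%) of 12 of the 13 MondoA genes, against 2548 of all promoters (7.26%), and TXNIP was not among the 5 genes that hold it in this window. Another motif, TGACGTCA, the cyclic AMP response element, lay in 1 of the 25 promoters (4.00%) of 20 immediate early genes, against 649 of all promoters (1.85%). These matches describe letters in a window, and the motifs do not overlap one another in the stretches printed.

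At 2 h, phenformin changed a large share of the transcriptome by small amounts, with genes of the integrated stress response and of cholesterol synthesis at the top of the rises and the MondoA targets TXNIP and ARRDC4 and the YAP target CTGF among the genes that fell by more than 1 log2 unit. Of 13617 genes tested on log2(TPM + 1) with limma and Benjamini-Hochberg adjustment, 3230 were higher (23.7%) and 4221 were lower (31%) in phenformin at 2 h than in DMSO, and 6166 did not pass. At 4 h the numbers were 3851 higher (28.3%) and 5107 lower (37.5%). Few of these differences were large: 10 genes were higher and 177 lower by at least 1 log2 unit, a doubling or halving of TPM + 1, at 2 h, and 95 were higher and 368 lower at 4 h. Over all genes tested the median difference was -0.025 at 2 h and -0.045 at 4 h, so the shares of members given for each group below are read against these percentages.

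The split of calls between directions turned with the scaling at both times: at 2 h, 43.3% of calls were rises on the deposited TPM, against 55% after median-ratio scaling and 53.9% after quantile normalization, and at 4 h, 43% were rises on the deposited TPM, against 52.1% and 52.9%. Without the libraries numbered 1 of every group, 3468 genes were higher and 4204 lower at 2 h, and 3690 were higher and 5150 lower at 4 h. Both times share the same 3 DMSO libraries, so their lists are given side by side and are not counted as independent of each other. Differences of lowly expressed genes are understated on the log2(TPM + 1) scale.

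The integrated stress response held the largest single-gene rises named here. Of its 43 listed genes, all tested, 28 rose and 4 fell at 2 h, against 23.7% and 31% of all genes, with a median difference of 0.33. At 4 h, 38 rose and 3 fell, against 28.3% and 37.5% of all genes, with a median difference of 0.90. Without the libraries numbered 1 of every group the counts were 30 and 5 at 2 h and 38 and 3 at 4 h. The rises were led by 5 genes of stress signalling: DDIT4, CHAC1, STC2, DDIT3 and SESN2.

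DDIT4 (chr10:72273919-72276039) encodes REDD1, a stress-induced inhibitor of the growth kinase complex mTORC1. Its level was 132, 125 and 142 TPM in phenformin at 2 h and 244, 234 and 244 TPM in phenformin at 4 h, against 19, 17.7 and 16.2 TPM in DMSO. The groups did not overlap, and each phenformin library was far above every DMSO library. The difference was 2.85 ± 0.15 (SE) at 2 h (adjusted p = 2.6e-26) and 3.70 ± 0.15 at 4 h (adjusted p = 7.7e-34).

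CHAC1 (chr15:40953149-40956519) encodes an enzyme that breaks down glutathione and is a classic ATF4 target. It stood at 24.2, 26.4 and 28.5 TPM in phenformin at 2 h and 37.8, 45 and 43.4 TPM in phenformin at 4 h, against 4.61, 2.02 and 2.69 TPM in DMSO. All phenformin libraries lay above all DMSO libraries, with differences of 2.78 ± 0.16 (adjusted p = 2.1e-24) at 2 h and 3.44 ± 0.16 (adjusted p = 1.8e-30) at 4 h. DDIT3 (chr12:57516588-57520517), the gene of the transcription factor CHOP, had 20.7, 22 and 24.2 TPM in phenformin at 2 h and 46.5, 60 and 58.4 TPM in phenformin at 4 h, against 7.05, 6.56 and 6.79 TPM in DMSO. Its DMSO libraries were within 1 TPM of each other, and the differences were 1.58 ± 0.08 (adjusted p = 2.5e-26) at 2 h and 2.83 ± 0.08 (adjusted p = 5.2e-43) at 4 h.

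STC2 (chr5:173314723-173329503), a secreted glycoprotein induced by stress of the endoplasmic reticulum, had 18.7, 23.8 and 25.2 TPM in phenformin at 2 h and 41.8, 54.1 and 52.1 TPM in phenformin at 4 h, against 7.08, 6.20 and 6.21 TPM in DMSO. SESN2 (chr1:28259452-28282491) encodes sestrin 2, a leucine sensor that restrains mTORC1. It had 35.1, 39.8 and 42.9 TPM in phenformin at 2 h and 82.4, 100.4 and 97.7 TPM in phenformin at 4 h, against 19, 15.5 and 14.5 TPM in DMSO. Neither gene had overlapping groups. STC2 rose by 1.65 at 2 h and 2.74 at 4 h, and SESN2 by 1.22 at 2 h and 2.45 at 4 h.

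ATF4 itself (chr22:39520564-39522686), whose protein is raised mainly through translation, had more messenger RNA: 679.7, 763 and 734 TPM in phenformin at 2 h and 734, 815 and 785 TPM in phenformin at 4 h, against 419, 386 and 358 TPM in DMSO. The differences were 0.90 ± 0.06 (adjusted p = 2.7e-19) at 2 h and 1.00 ± 0.06 (adjusted p = 1.4e-22) at 4 h. Between 2 h and 4 h the level of ATF4 did not pass the test (difference 0.10, adjusted p = 0.25), whereas DDIT3, STC2, SESN2 and DDIT4 rose further, by 1.26, 1.09, 1.23 and 0.85.

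**Figure D1:**
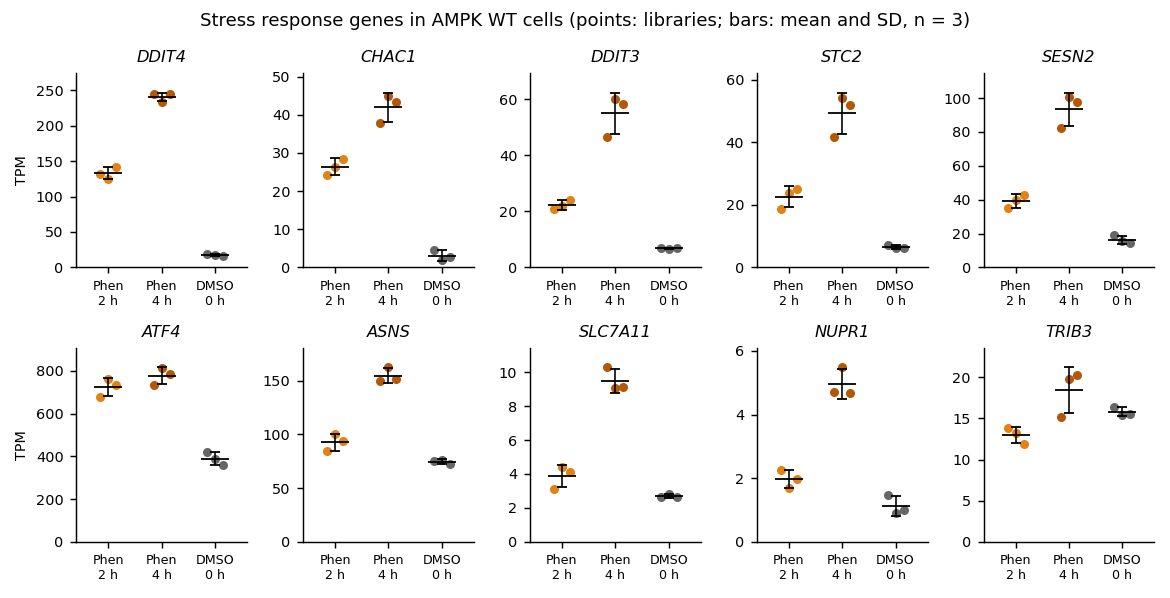
Levels in TPM on the vertical axes of 10 stress response genes in the 3 phenformin libraries at 2 h, the 3 at 4 h and the 3 DMSO libraries at 0 h of AMPK WT cells; points are libraries and bars are the mean and SD (n = 3). DDIT4, CHAC1, DDIT3, STC2, SESN2 and ATF4 are already clear of DMSO at 2 h, while ASNS, SLC7A11 and NUPR1 stand out at 4 h and TRIB3 stays close to DMSO.

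Genes that make or import amino acids were among the members that rose, several of them further by 4 h. ASNS (chr7:97852117-97872165), asparagine synthetase, whose promoter element is printed above, had 84.5, 99.9 and 93.8 TPM in phenformin at 2 h and 149, 163 and 152 TPM in phenformin at 4 h, against 75.3, 76.2 and 72.5 TPM in DMSO. Its differences were 0.31 at 2 h (adjusted p = 1.8e-04) and 1.04 at 4 h (adjusted p = 1.9e-21), so the libraries at 4 h, about double the DMSO level, stood apart from those at 2 h. SLC7A11 (chr4:138164094-138242349), the cystine importer, had 3.13, 4.39 and 4.14 TPM in phenformin at 2 h and 10.3, 9.10 and 9.12 TPM in phenformin at 4 h, against 2.62, 2.81 and 2.66 TPM in DMSO, differences of 0.39 and 1.51. PCK2, the mitochondrial PEPCK, rose by 0.33 at 2 h and 1.06 at 4 h. SLC6A9, a glycine transporter, did not pass at 2 h (-0.24, adjusted p = 0.076) and rose by 1.05 at 4 h.

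Transcription factors and regulators of the same list followed a similar course. JDP2, a bZIP repressor, rose by 0.78 at 2 h and 1.97 at 4 h. NUPR1, a small stress protein, had 2.27, 1.69 and 1.98 TPM in phenformin at 2 h and 4.70, 5.50 and 4.69 TPM in phenformin at 4 h, against 1.47, 0.898 and 0.993 TPM in DMSO. INHBE, an activin subunit, was below 0.3 TPM in every phenformin library at 2 h and did not pass (0.15, adjusted p = 0.093); at 4 h it had 0.922, 1.38 and 1.35 TPM, against 0.165, 0.0960 and 0.0730 TPM in DMSO, a rise of 0.99. ATF3, a stress-induced bZIP factor that also counts as an immediate early gene, rose by 0.66 at 4 h, while its 2 h libraries at 44.7, 49.4 and 50.5 TPM lay within the DMSO range of 29.5 to 53 TPM and its call there (0.33, adjusted p = 0.02) did not hold under every alternative.

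Members of the same list also fell. CHAC2, a constitutive relative of CHAC1, fell by 0.76 at 2 h and by 0.99 at 4 h. ATF5, another bZIP factor of the response, fell by 0.27 at 2 h and by 0.70 at 4 h. TRIB3 (chr20:381306-397559), a pseudokinase that feeds back on ATF4, had 13.8, 13.2 and 11.9 TPM in phenformin at 2 h and 15.2, 19.8 and 20.3 TPM in phenformin at 4 h, against 16.5, 15.4 and 15.5 TPM in DMSO. TRIB3 was lower at 2 h in all 3 libraries (-0.27, adjusted p = 6.9e-04). Its call at 4 h (0.20, adjusted p = 0.0083) was lost without the phenformin library 2 (0.14, adjusted p = 0.093), and the libraries overlap there.

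The cytosolic aminoacyl tRNA synthetases, which charge tRNAs and include many ATF4 targets, rose in 10 of 19 members with 0 falls at 2 h and in 14 with 2 falls at 4 h. YARS, the tyrosine enzyme, had 124, 147 and 142 TPM in phenformin at 2 h and 174, 200.5 and 195 TPM in phenformin at 4 h, against 96.2, 112 and 103 TPM in DMSO. GARS, the glycine enzyme, rose by 0.25 at 2 h and 0.68 at 4 h. The falls at 4 h were FARSA (-0.19) and HARS (-0.18), for phenylalanine and histidine.

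Chaperones of the endoplasmic reticulum split: 7 of 20 rose and 1 fell at 2 h, and 6 rose and 5 fell at 4 h, with 13 and 12 rising after median-ratio scaling. HERPUD1, a component of protein disposal from the reticulum, rose by 0.37 and 0.86, and XBP1, the transcription factor of the unfolded protein response, by 0.26 and 0.70. HSPA5, the lumenal chaperone BiP, did not pass at 2 h (-0.05, adjusted p = 0.45) and had 135, 136 and 132 TPM in phenformin at 4 h, against 168, 187 and 182 TPM in DMSO (-0.41, adjusted p = 3.4e-09). Of the mitochondrial chaperones, proteases and genes of the OMA1 to HRI relay, 9 of 18 rose and 1 fell at 2 h and 10 rose and 3 fell at 4 h; after median-ratio scaling 14 rose and 0 fell at 2 h and 1 fell at 4 h. Of the eIF2α kinases other than HRI, the kinase of that relay, EIF2AK4, known as GCN2, rose by 0.48 and 0.39. EIF2AK3, known as PERK, rose by 0.35 and 0.58.

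Sterol genes were the other group of large rises. Of 27 tested genes of cholesterol synthesis and sterol sensing, 17 rose and 6 fell at 2 h (median 0.37) and 17 rose and 5 fell at 4 h (median 0.47), in a pathway whose genes are transcribed by SREBP-2 when sterol in the endoplasmic reticulum is low. Without the libraries numbered 1, 17 rose and 7 fell at each time. INSIG1 (chr7:155297772-155310235), the protein that holds SREBP in the reticulum and is itself an SREBP target, had 124, 138 and 142 TPM in phenformin at 2 h and 119.8, 121 and 126 TPM in phenformin at 4 h, against 49.6, 58.5 and 55.8 TPM in DMSO. Its groups were more than 60 TPM apart, with differences of 1.28 ± 0.08 (adjusted p = 1.1e-22) at 2 h and 1.15 ± 0.08 (adjusted p = 2.9e-21) at 4 h.

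HMGCS1 (chr5:43287470-43313512), which makes the precursor of mevalonate, had 32.8, 36 and 37.4 TPM in phenformin at 2 h and 48.7, 42 and 45 TPM in phenformin at 4 h, against 14.6, 22.5 and 18.9 TPM in DMSO. It rose by 0.90 and 1.25. All of its phenformin libraries lay above all of its DMSO libraries. MSMO1, a demethylating oxidase of the pathway, rose by 0.88 and 0.62. SREBF1, the gene of SREBP-1, had 10.9, 8.00 and 7.88 TPM in phenformin at 2 h and 9.01, 7.96 and 8.08 TPM in phenformin at 4 h, against 11.9, 12 and 11.8 TPM in DMSO, and fell by 0.39 and by 0.46.

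Fatty acid synthesis enzymes, which are also SREBP targets, rose in 7 of 10 members with 0 falls at 2 h and in 7 with 1 fall at 4 h. ELOVL6, a fatty acid elongase, rose by 0.43 and 0.45, ACLY, which makes cytosolic acetyl-CoA, by 0.32 at both times, and ACSL3, an acyl-CoA synthetase, by 0.26 and 0.37. In contrast CPT2 (chr1:53196429-53214197), the mitochondrial carnitine palmitoyltransferase of fatty acid oxidation, had 11.9, 11.4 and 11.7 TPM in phenformin at 2 h and 8.91, 6.98 and 7.63 TPM in phenformin at 4 h, against 18.1, 19 and 19.4 TPM in DMSO. No phenformin library of CPT2 reached the DMSO range, and it fell by 0.65 and by 1.17 (adjusted p = 4.9e-11 and 4.3e-23).

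Large rises outside these lists included IRS4, an insulin receptor substrate that HEK 293 cells express strongly, and the noncoding snoRNA host gene SNHG7. IRS4 (chrX:108732497-108736377) had 79.6, 125 and 117 TPM in phenformin at 2 h and 127, 122 and 119.7 TPM in phenformin at 4 h, against 28.9, 49.8 and 43.7 TPM in DMSO, differences of 1.38 and 1.60. SNHG7 (chr9:136724594-136728184) had 57.5, 69.6 and 63.7 TPM in phenformin at 2 h and 74.8, 91.1 and 94.6 TPM in phenformin at 4 h, against 20.6, 25.7 and 22 TPM in DMSO, differences of 1.45 and 1.89. Neither gene's phenformin and DMSO libraries overlapped. VEGFA, the vascular growth factor, which is a target of HIF and of ATF4, rose by 0.58 and 1.08. HIF targets as a list rose in 10 and fell in 5 of 22 at 2 h and rose in 11 and fell in 5 at 4 h, with 3 falling at 2 h after quantile normalization. The falls included EGLN3, an oxygen-sensing prolyl hydroxylase (-0.86 and -0.89), and ADM, adrenomedullin (-0.89 and -0.85).

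Metallothioneins, small metal-binding proteins, were higher in phenformin, most clearly at 4 h: with the zinc exporter SLC30A1 and the regulator MTF1, 4 of 5 tested genes rose and 1 fell at 2 h, and 3 rose and 0 fell at 4 h. MT1F had 11.9, 5.12 and 6.86 TPM in phenformin at 2 h and 17.2, 13.7 and 13 TPM in phenformin at 4 h, against 4.73, 3.00 and 3.62 TPM in DMSO, rises of 0.85 and 1.71. MT1X had 334, 76.6 and 106 TPM in phenformin at 2 h and 439, 162 and 187 TPM in phenformin at 4 h, against 93.3, 50.9 and 56.9 TPM in DMSO. MT1X rose by 1.86 at 4 h (adjusted p = 8.4e-08). At 2 h its call (1.10, adjusted p = 0.0011) was lost without the phenformin library 1 (0.47, adjusted p = 0.15). MT2A had 211, 44.6 and 57.6 TPM in phenformin at 2 h, against 68.5, 34 and 41.8 TPM in DMSO, and its call there was also lost without the phenformin library 1 (0.13, adjusted p = 0.72), without the DMSO library 2 (0.60, adjusted p = 0.13) and without the DMSO library 3 (0.75, adjusted p = 0.068). The metallothionein genes are close relatives, so their reads may be shared among copies.

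Among the falls, the MondoA targets TXNIP and ARRDC4 stood out. TXNIP (chr1:145992426-145995722), an arrestin that blocks glucose uptake, had 3.77, 2.96 and 2.97 TPM in phenformin at 2 h and 9.01, 7.51 and 7.31 TPM in phenformin at 4 h, against 33.7, 16.4 and 19.2 TPM in DMSO. It fell by 2.45 ± 0.17 at 2 h (adjusted p = 2.7e-20) and by 1.37 ± 0.17 at 4 h (adjusted p = 4.9e-11). The level at 4 h was higher than at 2 h (1.08, adjusted p = 3.6e-07) and still below every DMSO library. ARRDC4 (chr15:97960703-97973838), its paralog and the gene of the E-box stretch printed above, had 4.15, 3.55 and 3.80 TPM in phenformin at 2 h and 5.16, 3.84 and 3.79 TPM in phenformin at 4 h, against 19.2, 11.2 and 14.5 TPM in DMSO. ARRDC4 fell by 1.70 and by 1.58, with no change between 2 h and 4 h that passed (0.11, adjusted p = 0.52).

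The rest of the MondoA list did not share this direction. Of 13 genes, 3 rose and 5 fell at 2 h and 4 rose and 5 fell at 4 h, with medians of 0.06 and -0.01, and after median-ratio scaling 7 rose at 2 h. HK2, hexokinase 2, rose by 0.38 at 2 h and 0.34 at 4 h. MLXIP, the gene of MondoA itself, fell by 0.21 and by 0.34. Among glycolysis enzymes and glucose transporters, 3 of 23 rose and 4 fell at 2 h and 4 rose and 9 fell at 4 h; after median-ratio scaling 11 rose at 2 h and 2 fell at 4 h, so this list has no direction that holds.

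The matricellular genes CTGF and CYR61, targets of YAP and TEAD and also of serum response factor, fell steeply. CTGF (chr6:131948177-131951378) had 8.37, 5.09 and 5.07 TPM in phenformin at 2 h and 3.27, 3.42 and 3.31 TPM in phenformin at 4 h, against 34.3, 16.3 and 20 TPM in DMSO, falls of 1.74 and 2.43. CYR61 (chr1:85580761-85583965) had 25.2, 20.1 and 19.7 TPM in phenformin at 2 h and 10.7, 10.5 and 10.5 TPM in phenformin at 4 h, against 58.6, 32.8 and 40.5 TPM in DMSO, falls of 0.96 and 1.92. Every phenformin library of both genes was below every DMSO library. The list of YAP and TEAD targets as a whole had 2 rises and 8 falls among 14 at 2 h but 6 rises and 5 falls at 4 h, with 4 rises at 2 h after quantile normalization, and TEAD4, a factor of the complex, rose by 0.37 and 0.54. AJUBA, a LIM protein of the pathway, was lower than DMSO at 2 h (-0.38) and higher at 4 h (0.52).

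**Figure D2:**
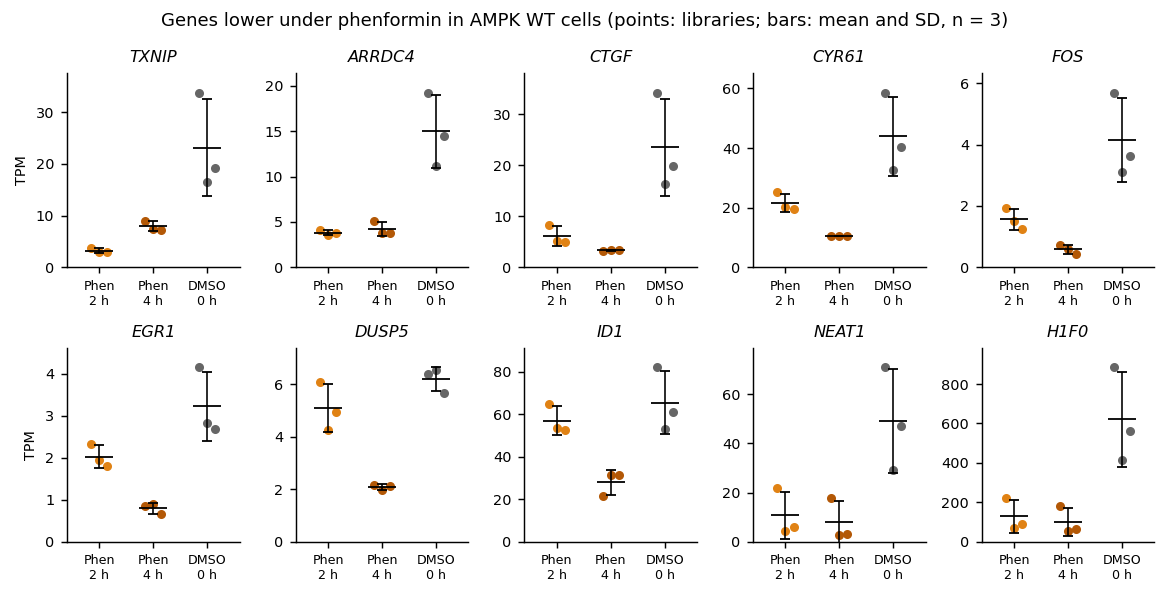
Levels in TPM on the vertical axes of 10 genes that were lower under phenformin, in the 3 phenformin libraries at 2 h, the 3 at 4 h and the 3 DMSO libraries at 0 h of AMPK WT cells; points are libraries and bars are the mean and SD (n = 3). TXNIP is lowest at 2 h, while CTGF, CYR61, FOS, EGR1, DUSP5 and ID1 are lower at 4 h than at 2 h; the DMSO library 1 is the highest point for 9 of the 10 genes.

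Growth factor signalling genes were lower as groups. Of 24 tested immediate early genes, transcribed within minutes of ERK signalling, 3 rose and 13 fell at 2 h (median -0.22) and 3 rose and 16 fell at 4 h (median -0.50). Of 11 feedback regulators of ERK, 1 rose and 8 fell at each time, with medians of -0.42 and -0.62. Without the libraries numbered 1, 4 immediate early genes rose and 13 fell at 2 h and 3 rose and 16 fell at 4 h. These counts stand against 31% of all genes lower at 2 h and 37.5% at 4 h.

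FOS (chr14:75278778-75282234), an AP-1 subunit, had 1.94, 1.49 and 1.24 TPM in phenformin at 2 h and 0.729, 0.598 and 0.442 TPM in phenformin at 4 h, against 5.69, 3.12 and 3.62 TPM in DMSO. FOS fell by 0.98 and by 1.67 (adjusted p = 4.4e-08 and 1.3e-16). FOSB, another AP-1 subunit, had 5.73, 1.59 and 1.21 TPM in phenformin at 2 h, which overlapped DMSO, and 0.525, 0.488 and 0.416 TPM in phenformin at 4 h, against 26.1, 5.37 and 9.57 TPM in DMSO. FOSB fell by 1.86 and by 3.05, and EGR3, a zinc finger factor of the same list, by 1.97 and by 2.66. SPRY2, a Sprouty inhibitor of receptor tyrosine kinase signalling, had 8.13, 6.28 and 6.83 TPM in phenformin at 2 h and 8.03, 7.43 and 7.43 TPM in phenformin at 4 h, against 26.7, 14 and 17.3 TPM in DMSO. SPRY2 fell by 1.29 and by 1.19, and its level at 4 h was close to that at 2 h (0.10, adjusted p = 0.68). DUSP5, a nuclear ERK phosphatase, moved later: 6.08, 4.27 and 4.96 TPM in phenformin at 2 h overlapped the DMSO libraries at 6.40, 6.54 and 5.68 TPM, while 2.15, 1.96 and 2.13 TPM in phenformin at 4 h did not (-1.23, adjusted p = 2.2e-17). MCL1, an antiapoptotic BCL2 relative with a short-lived transcript, fell by 0.39 and by 0.84. NR4A1, an orphan nuclear receptor often induced with these genes, did not pass at either time (0.22 and -0.02).

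BMP targets fell at 4 h. ID1 (chr20:31605283-31606514), an inhibitor of differentiation induced by SMADs, had 64.9, 53.5 and 52.5 TPM in phenformin at 2 h and 21.3, 31.2 and 31.3 TPM in phenformin at 4 h, against 82.3, 53.3 and 61 TPM in DMSO. ID1 did not pass at 2 h (-0.18, adjusted p = 0.27) and fell by 1.20 at 4 h (adjusted p = 1.8e-11). Of 13 BMP and TGF beta targets, 2 rose and 4 fell at 2 h and 3 rose and 9 fell at 4 h, with ID4, a relative of ID1, falling by 0.44 and by 0.93. SMURF2, a ubiquitin ligase that removes receptors and SMADs, rose by 0.41 and 0.84.

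Most p53 targets were lower, in a line whose SV40 large T antigen is known to bind and inactivate p53. Of 22, 2 rose and 17 fell at 2 h (median -0.39) and 4 rose and 14 fell at 4 h (median -0.38). CDKN1A (chr6:36676460-36687339), the cell cycle inhibitor p21, had 11.2, 9.44 and 9.33 TPM in phenformin at 2 h and 13.5, 10.9 and 9.92 TPM in phenformin at 4 h, against 29.3, 15.5 and 19.4 TPM in DMSO, falls of 0.99 and 0.81. PLK2, a polo-like kinase, fell by 1.13 and by 1.19. Those that rose were, at 2 h, SESN2 and BBC3. BBC3, the BH3-only protein PUMA, which CHOP can also induce, had 8.44, 9.19 and 8.26 TPM in phenformin at 2 h and 11.9, 15.4 and 16.1 TPM in phenformin at 4 h, against 7.63, 4.43 and 4.64 TPM in DMSO (0.58 and 1.26). In the BCL2 family as a whole 1 of 17 rose and 7 fell at 2 h and 2 rose and 8 fell at 4 h (4 rises after median-ratio scaling), with BMF, a BH3-only protein, falling by 1.41 and by 0.87.

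Among the largest falls were also FZD8, a Wnt receptor, HOXB4, a homeobox factor, and KCTD12, a partner of GABA B receptors. FZD8 (chr10:35638249-35641434) had 6.47, 4.06 and 4.72 TPM in phenformin at 2 h and 5.02, 3.80 and 4.51 TPM in phenformin at 4 h, against 38, 12.6 and 18 TPM in DMSO, falls of 1.85 and 2.00. HOXB4 (chr17:48575507-48578381) had 4.72, 2.65 and 2.60 TPM in phenformin at 2 h and 3.01, 1.73 and 2.17 TPM in phenformin at 4 h, against 17.5, 8.95 and 11.9 TPM in DMSO, falls of 1.66 and 2.03. KCTD12 fell by 1.34 and by 1.76. FZD8 and HOXB4 did not overlap DMSO at either time, the library 1 was the highest in each group, and the step between 2 h and 4 h did not pass for either gene (adjusted p = 0.75 and 0.3).

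Large falls that were deeper at 4 h than at 2 h included genes of zinc transport, ribosome assembly, transcript ends and the cytoskeleton. SLC39A10 (chr2:195657128-195737702), a zinc importer, had 13.1, 14.9 and 14.5 TPM in phenformin at 2 h and 6.74, 6.39 and 6.28 TPM in phenformin at 4 h, against 18.2, 17.3 and 17.7 TPM in DMSO, falls of 0.30 and 1.33. UTP3, a factor of ribosome assembly, fell by 0.80 and by 1.48. PCF11, which cleaves and terminates transcripts, had 3.14, 5.42 and 4.44 TPM in phenformin at 2 h and 2.92, 2.97 and 2.51 TPM in phenformin at 4 h, against 7.99, 8.07 and 7.97 TPM in DMSO. Its DMSO libraries differed by 0.1 TPM and its phenformin libraries lay below 6 TPM. TUBB4B, a beta tubulin, fell by 0.41 and by 1.18, and RANBP6, an importin, by 1.03 and by 1.51.

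Histone and antisense RNAs were mostly lower, where 31% of all genes were lower at 2 h and 37.5% at 4 h. The counts of these lists were not repeated under the alternatives. Of 47 tested histone genes, 2 rose and 38 fell at 2 h (median -0.84) and 1 rose and 43 fell at 4 h (median -1.01). The linker histone H1F0 (chr22:37805107-37807436), whose transcript carries a poly(A) tail, had 224, 70.5 and 88.9 TPM in phenformin at 2 h and 180.1, 55.4 and 63.7 TPM in phenformin at 4 h, against 887, 414 and 563 TPM in DMSO, falls of 2.39 and 2.77. No phenformin library reached the lowest DMSO library, although the libraries numbered 1 were more than 2 times the others within each phenformin group. The summed level of all histone genes was 1871, 1446 and 1498 TPM in phenformin at 2 h and 1643, 1348 and 1403 TPM in phenformin at 4 h, against 3321, 2262 and 2557 TPM in DMSO.

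Antisense transcripts named AS1 fell in 209 of 280 tested members at 2 h, with 2 rises, and in 230 at 4 h, with 5 rises. NEAT1 fell by 2.32 and by 2.83 and MALAT1, another nuclear RNA, by 0.63 and by 0.64. Reads of histone genes are shared between near-identical copies and reads of antisense genes may come from the overlapping gene, since strand is not given in the sources used here; the part of RNA selection or yield in these falls was not tested.

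Genes of mitosis rose. Of 24 G2 and M phase genes, 15 rose and 0 fell at 2 h (median 0.15) and 17 rose and 1 fell at 4 h (median 0.19), with AURKA, the spindle kinase, at 52.9, 65.2 and 60.8 TPM in phenformin at 2 h and 66.4, 64.5 and 64.1 TPM in phenformin at 4 h, against 44.3, 48.5 and 46.2 TPM in DMSO. CENPA, the centromeric histone, rose by 0.24 and 0.62. Cytosolic heat shock proteins rose in 11 of 17 with 1 fall at 2 h, but at 4 h 6 rose and 4 fell, with 2 falling after median-ratio scaling. HSPA8, the constitutive HSC70, had 977, 841 and 904 TPM in phenformin at 2 h and 766, 539 and 555 TPM in phenformin at 4 h, against 517, 799 and 732 TPM in DMSO, so its rise at 2 h (0.43, adjusted p = 2.4e-04) was not seen at 4 h (-0.13, adjusted p = 0.24).

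In several of the gene sets the study was built around, the counts of calls changed with the scaling. Among all genes, 23.7% were higher and 31% lower at 2 h, and 28.3% were higher and 37.5% lower at 4 h. Of 36 tested complex I subunits, 1 rose and 6 fell at 2 h and 1 rose and 13 fell at 4 h, with medians of -0.03 and -0.08; after median-ratio scaling 6 rose and 2 fell at 2 h, and 4 rose and 2 fell at 4 h, so the direction of complex I turned with the scaling. NDUFS4, an accessory subunit of the NADH-binding arm, was the rise, with 47.6, 47.9 and 49.6 TPM in phenformin at 2 h and 52.2, 54.7 and 57.4 TPM in phenformin at 4 h, against 41.6, 39.1 and 40.9 TPM in DMSO. Of 39 genes of complexes II to V and cytochrome c, 2 rose and 8 fell at 2 h, which became 5 and 0 after median-ratio scaling, and 4 rose and 15 fell at 4 h, which became 7 and 9. CYCS, cytochrome c, fell by 0.33 at 4 h. NRF1, a transcription factor of respiratory chain genes, rose by 0.53 and 0.79, and TWNK, the mitochondrial DNA helicase, fell by 0.34 at both times.

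Lysosomal hydrolases and membrane proteins rose in 6 and fell in 17 of 51 at 2 h, which became 13 and 10 after median-ratio scaling, and rose in 13 and fell in 16 at 4 h, where 10 fell after median-ratio scaling. NPC1, the lysosomal cholesterol exporter, did not pass at 2 h (-0.03) and had 17.7, 17.1 and 16.1 TPM in phenformin at 4 h, against 13.6, 12.5 and 12.9 TPM in DMSO (0.36, adjusted p = 1.6e-13). CTSA, a carboxypeptidase, fell by 0.46 and by 0.66. The V-ATPase, the proton pump of the lysosome, had 1 rise and 9 falls among 18 subunits at 2 h, which became 2 and 4 after median-ratio scaling, and 2 rises and 11 falls at 4 h, which became 2 and 6. Autophagy machinery rose in 12 and fell in 11 of 39 at 2 h, with 20 rising after median-ratio scaling, and rose in 18 and fell in 10 at 4 h. In the folliculin and Rag GTPase system that gates TFEB at the lysosome, 5 of 26 rose and 10 fell at 2 h, with 9 rising after median-ratio scaling, and 9 rose and 9 fell at 4 h. FNIP1, the AMPK substrate of the study, had 5.08, 4.32 and 4.44 TPM in phenformin at 4 h, against 2.65, 2.76 and 2.98 TPM in DMSO (0.56, adjusted p = 1.2e-10), and RRAGA, a Rag GTPase, fell by 0.54 and by 0.80. TFEB did not pass at either time (0.07 and -0.16). Among AMPK subunits, PRKAA2, the α2 catalytic subunit, fell by 0.49 and by 0.47, and PRKAB2, the β2 scaffold, did not pass at 2 h (0.02) and rose by 0.41 at 4 h.

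**Figure D3:**
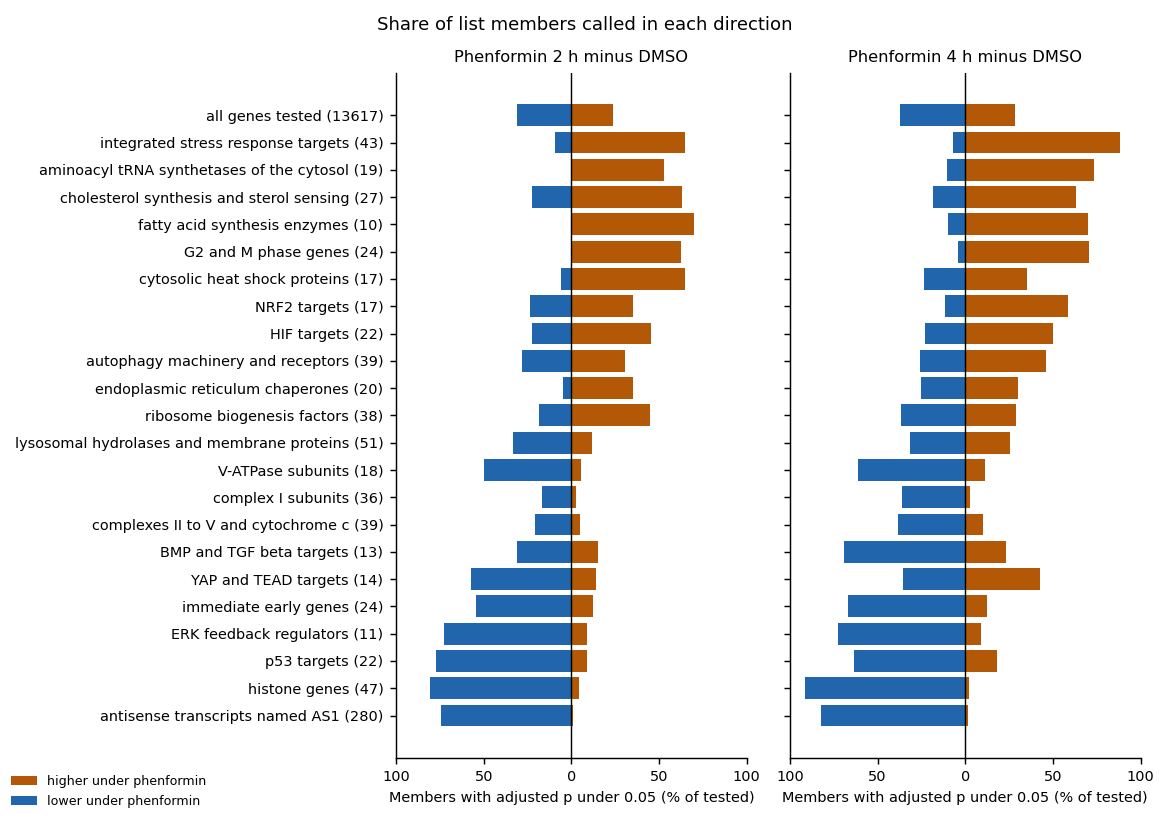
Percent of tested members called higher (right) or lower (left) by adjusted p in phenformin against DMSO for all 13617 genes and for 22 gene lists, at 2 h and at 4 h in AMPK WT cells. Bars of all genes reach 23.7% higher and 31% lower at 2 h and 28.3% and 37.5% at 4 h; integrated stress response genes reach far to the right at both times and histone genes and antisense transcripts far to the left.

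Between 2 h and 4 h of phenformin, 1851 genes rose and 1801 fell (26.8% called), 12 and 3 of them by at least 1 log2 unit, and 35 of the 43 integrated stress response genes rose while 3 fell. The further rises included SLC6A9 (1.29), JDP2 (1.20) and SLC7A11 (1.11), and the further falls SLC39A10 (-1.02), ID1 (-1.02) and DUSP5 (-0.98). From 4 h to 8 h, 3491 genes rose and 1854 fell (39.3% called). TRIB3, unremarkable until 4 h, rose by 1.43 (adjusted p = 3.4e-29), and INHBE and NUPR1 rose by 1.63 and 1.34. DDIT4 and CHAC1 did not pass in that step (-0.15 and -0.18), and INSIG1 fell by 0.59 to 81.2 ± 5.14 TPM at 8 h (SD, n = 3), against 122 ± 3.04 TPM at 4 h. With only those groups in the fit, the count between 2 h and 4 h was 1027, and the rises from 4 h to 8 h were 50% of calls after median-ratio scaling, against 65.3% on the deposited TPM.

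Set beside the other drugs at the same times, phenformin had fewest calls at 2 h against rotenone, another complex I inhibitor, and the uncoupler CCCP: 402 genes were higher and 397 lower than in rotenone (5.87% called) and 867 higher and 374 lower than in CCCP (9.11%). Against 991, 2990 were higher and 3148 lower at 2 h (45.1%). At 4 h the numbers were 1505 higher and 2967 lower than rotenone (32.8%), 1871 and 1994 than CCCP (28.4%), and 3376 and 5212 than 991 (63.1%). Doses are not given in the sources used here, so these differences compare the treatments as applied. The 4 h time of the CCCP libraries rests on their library code. With the fit limited to the groups compared, 30 genes were called between phenformin and rotenone at 2 h, and without the rotenone library 1 the number was 288. Gene differences are therefore given below at 4 h unless 2 h is stated. After median-ratio scaling, 51.9% of calls against rotenone at 4 h were higher, against 33.7% on the deposited TPM, and 53.1% against 39.3% for 991.

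The stress genes were highest in phenformin. DDIT3 had 55 ± 7.40 TPM in phenformin at 4 h, against 11.1 ± 0.630 in rotenone, 31.9 ± 1.06 in CCCP and 7.84 ± 0.934 TPM in 991 (SD, n = 3 each). Phenformin exceeded rotenone by 2.20 ± 0.08 (adjusted p = 1.4e-35) and CCCP by 0.76 ± 0.08 (adjusted p = 5.5e-12). DDIT4 had 241 ± 6.03 TPM in phenformin, against 69.4 ± 8.30 in rotenone, 110.2 ± 4.65 in CCCP and 27.6 ± 10.4 TPM in 991. CHAC1 was higher by 1.83 than in rotenone and by 1.27 than in CCCP. ATF4 messenger RNA, in contrast, had 778 ± 40.9 TPM in phenformin, 742 ± 47.3 in rotenone and 728 ± 22 TPM in CCCP, differences of 0.07 and 0.09 that did not pass (adjusted p = 0.44 and 0.29). Of the 43 listed genes, 32 were higher and 3 lower in phenformin than in rotenone at 4 h, and 28 were higher and 1 lower than in CCCP.

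Sterol genes separated phenformin from both mitochondrial poisons at 4 h, with 20 of 27 higher and 2 lower than in rotenone and 21 higher and 0 lower than in CCCP. INSIG1 had 122 ± 3.04 TPM in phenformin, against 49.6 ± 1.57 in rotenone and 58.9 ± 4.13 TPM in CCCP, differences of 1.29 and 1.04. HMGCS1 had 45.3 ± 3.34 TPM in phenformin, against 21.9 ± 0.922 in rotenone and 19.8 ± 1.04 TPM in CCCP. Against 991 the margins of INSIG1 and HMGCS1 were 0.43 and 0.61. At 2 h the margins were small: 0.31 over CCCP and 0.26 over 991 for INSIG1, and 0.39 over 991 for HMGCS1. These 2 h calls were lost with only the groups compared in the fit (adjusted p = 0.057, 0.091 and 0.13). The 2 h call of HMGCS1 over CCCP was lost without the CCCP library 1 (0.34, adjusted p = 0.13). Metallothioneins were also higher at 4 h. On their list of 5 tested genes, which includes SLC30A1 and MTF1, 4 passed against rotenone and 4 against CCCP. MT1X stood at 263 ± 153 TPM in phenformin, against 34.4 ± 7.31 in rotenone and 31.9 ± 2.83 TPM in CCCP, with the library 1 of phenformin more than 2 times the other libraries.

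Some genes that were low under phenformin were also low under the other drugs at 4 h, and some differed from drug to drug. EGR1 had mean levels of 0.793 in phenformin, 0.883 in rotenone, 0.811 in CCCP and 1.09 TPM in 991. Its DMSO mean was 3.22 TPM. DUSP5 had 2.08, 2.70, 3.18 and 3.07 TPM in the same order, against 6.21 TPM in DMSO. ID1 had 28, 30.1, 52.8 and 24.9 TPM, against 65.6 TPM in DMSO. ARRDC4 had 4.26 ± 0.780 TPM in phenformin at 4 h, 4.21 ± 0.229 in rotenone and 4.15 ± 0.214 TPM in CCCP (differences of 0.01 and 0.02, adjusted p = 0.98 and 0.91), against 21.2 ± 5.32 TPM in 991. TXNIP at 4 h was higher in phenformin, at 7.94 ± 0.932 TPM, than in rotenone at 3.81 ± 0.187 TPM or CCCP at 2.89 ± 0.134 TPM (0.89 and 1.20). CYR61 had 10.6 ± 0.117 TPM in phenformin, against 18.4 ± 0.525 in rotenone and 74.7 ± 8.67 TPM in CCCP, a difference from CCCP of -2.70 ± 0.19 (adjusted p = 3.5e-20). SLC39A10 was lower in phenformin, at 6.47 ± 0.237 TPM, than in rotenone at 15.6 ± 0.848 TPM, CCCP at 14.3 ± 0.493 TPM or 991 at 14 ± 0.892 TPM. PCF11 was lower than in rotenone (-1.36) and did not pass against CCCP (-0.03). H1F0 did not pass against rotenone (-0.21, adjusted p = 0.72) and was lower than in 991 (-2.50, adjusted p = 8.2e-08).

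**Figure D4:**
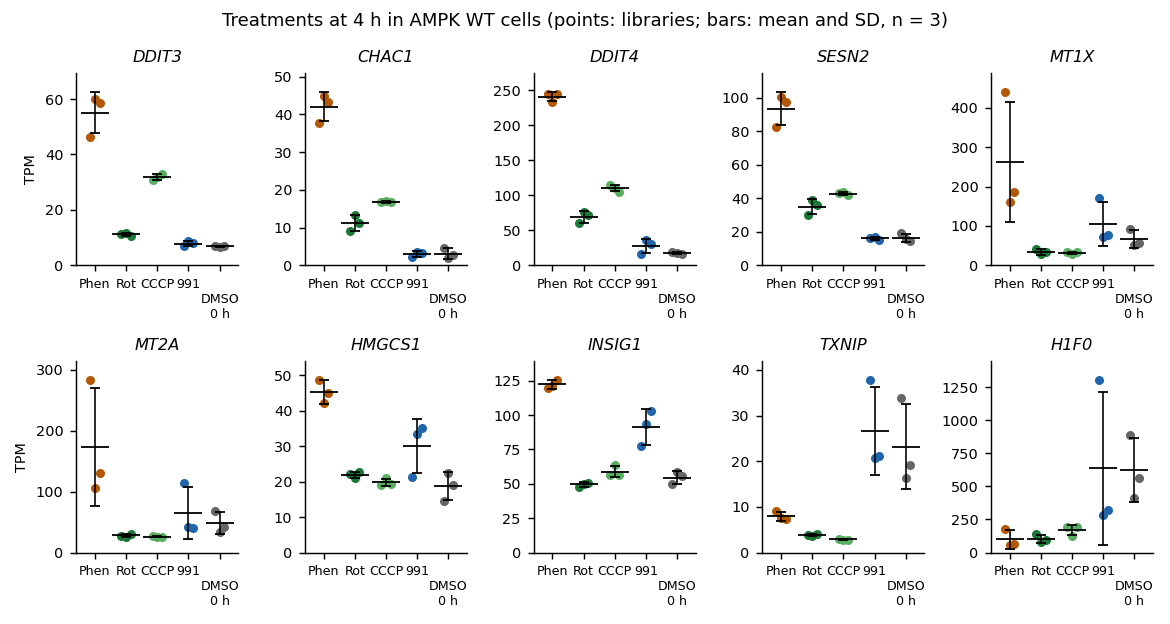
Levels in TPM on the vertical axes of 10 genes at 4 h in phenformin, rotenone, CCCP and 991, beside DMSO at 0 h, in AMPK WT cells; points are libraries and bars are the mean and SD (n = 3). DDIT3, CHAC1, DDIT4, SESN2, INSIG1 and HMGCS1 are highest in phenformin, and TXNIP and H1F0 are low in phenformin, rotenone and CCCP and near DMSO in 991.

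AMPK KO cells received phenformin at the same times, and the comparison asks which responses differ without the kinase. The difference between the KO response and the WT response, each against its own DMSO, passed for 40 genes upward and 127 downward at 2 h (1.23% called) and for 170 upward and 293 downward at 4 h (3.40%). PRKAA1, the α1 catalytic subunit, had 2.56 ± 0.153 TPM at 2 h and 2.50 ± 0.237 TPM at 4 h in phenformin-treated KO cells, against 7.40 ± 0.849 and 7.96 ± 1.23 TPM in WT cells (SD, n = 3 each). With only the groups compared in the fit, the counts were 2 at 2 h and 7 at 4 h, and they ran from 70 to 379 and from 204 to 833 when a library was left out.

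Sterol genes were among those whose response differed. INSIG1 had 82.5, 80.2 and 78.5 TPM at 2 h and 52.4, 52.6 and 55 TPM at 4 h in phenformin-treated KO cells, against 50, 63.6 and 65.6 TPM in KO cells given DMSO. In WT cells all 6 phenformin libraries were above 119 TPM, and the KO response was lower than the WT response by -0.85 ± 0.11 (adjusted p = 3.6e-07) at 2 h and -1.30 ± 0.11 (adjusted p = 2.2e-14) at 4 h. MSMO1 had 36.2 ± 1.69 TPM at 2 h and 28.5 ± 1.73 TPM at 4 h in KO cells, against 30.8 ± 2.58 TPM in KO cells given DMSO, and its response differed by -0.65 at 2 h and -0.73 at 4 h. HMGCS1 differed by -1.06 at 4 h (adjusted p = 3.4e-05), a call lost with only these groups in the fit (adjusted p = 0.14). With those groups alone the INSIG1 and MSMO1 differences passed at 4 h and were lost at 2 h (adjusted p = 0.1 and 0.08). Of the 27 sterol genes, 0 differed upward and 10 downward at 4 h, against 3.40% of all genes in either direction.

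The stress response was present in both lines. DDIT3 had 21.2, 22.1 and 22.4 TPM at 2 h and 39.4, 38.6 and 40.3 TPM at 4 h in phenformin-treated KO cells, against 5.67, 6.01 and 6.41 TPM in KO cells given DMSO. CHAC1 had 32.9, 31.2 and 34 TPM at 2 h and 41.2, 44.3 and 43.9 TPM at 4 h in KO cells, against 3.05, 2.31 and 2.18 TPM in KO cells given DMSO. Differences of response between KO and WT did not pass for DDIT3 (0.13 and -0.31, adjusted p = 0.7 and 0.12) or for CHAC1 (0.49 and 0.22, adjusted p = 0.33 and 0.66). Over the 43 listed genes, 0 differed at 2 h, against 1.23% of all genes. At 4 h, 2 differed upward and 1 downward, against 3.40% of all genes in either direction. With so few calls over all genes, the count at 2 h says little about the list. The gene that differed downward was DDIT4, whose KO libraries in DMSO, at 23.7, 34.5 and 38.3 TPM, were above those of WT. Its call was lost without the last of these (-0.73, adjusted p = 0.061). TXNIP did not pass either (0.41 and 0.17, adjusted p = 0.47 and 0.78).

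**Figure D5:**
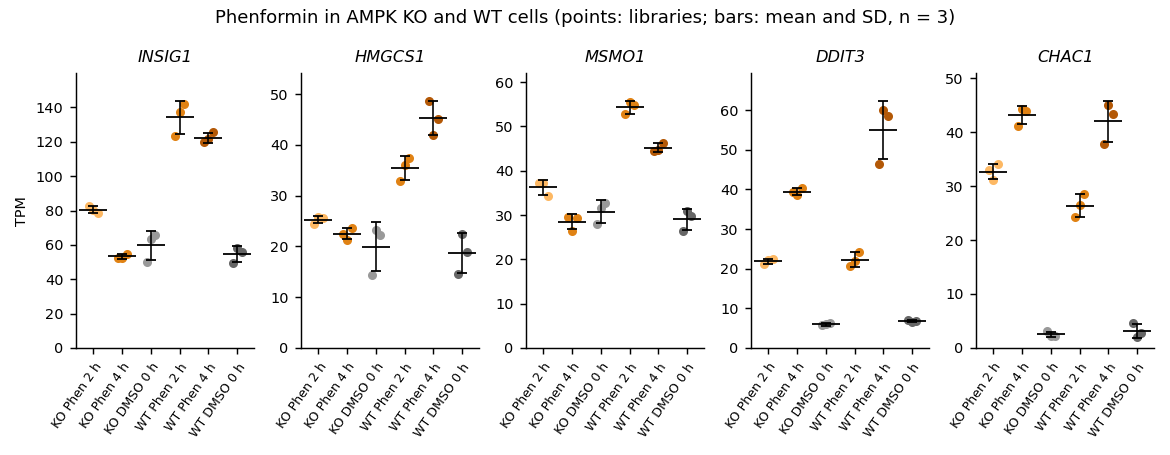
Levels in TPM on the vertical axes of INSIG1, HMGCS1, MSMO1, DDIT3 and CHAC1 in AMPK KO cells given phenformin for 2 h or 4 h or DMSO and in AMPK WT cells given the same; points are libraries and bars are the mean and SD (n = 3). INSIG1, HMGCS1 and MSMO1 are well above DMSO in WT cells at both times and near it in KO cells at 4 h, while DDIT3 and CHAC1 are far above DMSO in both lines.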

How the data were processed

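The authors deposited a table of TPM values (expression scaled for transcript length and library size) for 27234 genes in 102 libraries of AMPK WT and KO cells; per the submitters' processing notes FastQC, STAR and HOMER were used with GRCh38, and their settings are not given in the sources used here. No column of per-sample values was left unmatched. TPM + 1 was log2-transformed, genes at 1 TPM or more in at least 3 libraries were kept (13617), and limma 3.58.1 in R 4.3.3 fitted 1 mean per group over all 34 groups, with trended empirical Bayes variances and Benjamini-Hochberg adjustment at 0.05; log2 differences are phenformin minus the other group, or KO response minus WT response. The fit was tested on simulated data. Tables and plots used Python 3.11.15, pandas 2.3.3 and matplotlib 3.10.9. Members and gene lists were chosen with earlier results of these data known. Named genes are the largest non-overlapping rises and falls with a mean of at least 5 TPM, a panel of pathway genes and, from every list, at most 2 genes per direction. Histone and antisense genes were passed over in that ranking. Some genes, among them MT1F, MT1X, MT2A, SLC30A1, NEAT1, MALAT1, H1F0 and ATF4, were added after the values were seen. Alternatives were median-ratio and quantile scaling, pseudocount 0.1, no filter, a fit of the groups compared alone, a replicate block, each library left out, and, chosen after seeing the data, the libraries numbered 1 left out. Same-numbered phenformin and DMSO libraries deviated together with r of 0.388, 0.349 and 0.046 at 2 h and 0.242, 0.228 and -0.058 at 4 h, so the numbers were not taken as pairs; between phenformin at 4 h and at 2 h the values were 0.464, 0.379 and 0.156, which met the limit of 0.1 for pairing. The reported counts between 4 h and 2 h still come from the fit without pairs, with 1851 rises and 1801 falls. With the replicate block they were 2047 and 2089.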

Additional observations from a re-analysis of the deposited data

Results flagged for a closer look

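The response to phenformin differed between AMPK KO and WT cells, by the test of that difference in limma with Benjamini-Hochberg adjustment, for the genes named here, each given as KO minus WT in log2(TPM + 1). At 2 h the KO response was lower for INSIG1 (-0.85, adjusted p = 3.6e-07), C12orf66 (-0.70, adjusted p = 1.3e-04), NAT6 (-0.67, adjusted p = 0.018), MSMO1 (-0.65, adjusted p = 2.1e-04) and SLC25A43 (-0.63, adjusted p = 1.1e-04). It was higher at 2 h for EGR3 (1.64, adjusted p = 0.0018), CYR61 (1.08, adjusted p = 0.019), DDX17 (0.85, adjusted p = 6.9e-10), NAB2 (0.60, adjusted p = 0.026) and FAM13B (0.55, adjusted p = 2.1e-04). At 4 h it was lower for INSIG1 (-1.30, adjusted p = 2.2e-14), HMGCS1 (-1.06, adjusted p = 3.4e-05), IDI1 (-1.04, adjusted p = 0.0023), DDIT4 (-0.87, adjusted p = 0.0095) and SH2D2A (-0.82, adjusted p = 0.005). It was higher at 4 h for EGR3 (2.19, adjusted p = 3.4e-06), FOSB (2.05, adjusted p = 0.0075), RN7SK (1.25, adjusted p = 0.015), DDX17 (0.91, adjusted p = 2.3e-11) and CYR61 (0.89, adjusted p = 0.041).

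DDX17, an RNA helicase, had 159 ± 14.2 TPM at 2 h and 142 ± 8.70 TPM at 4 h in phenformin-treated KO cells, against 88.5 ± 0.801 TPM in KO cells given DMSO, while WT cells had 116 ± 5.58, 100.3 ± 8.75 and 118 ± 8.63 TPM in the same groups. SLC25A43, a mitochondrial carrier, was at 1.07 ± 0.323 TPM in KO cells given DMSO and 5.16 ± 0.269 TPM in WT cells given DMSO. EGR3, an immediate early gene, was at 0.515 ± 0.494 TPM in KO cells given DMSO and 6.51 ± 4.09 TPM in WT cells given DMSO. With only the groups compared in the fit, the differences of DDX17 at both times and of INSIG1 at 4 h still passed; those of HMGCS1, IDI1, DDIT4, SH2D2A, EGR3, FOSB, RN7SK and CYR61 at 4 h did not, and neither did those of the other genes named at 2 h.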

How the results depend on the processing

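Across the alternatives tried, 143 counts of genes called stayed within 1.5 times the reported count and 25 did not. With only the groups compared in the fit, 1027 genes were called between 4 h and 2 h of phenformin, 30 against rotenone, 376 against CCCP and 3092 against 991 at 2 h, and 2 at 2 h and 7 at 4 h for the KO minus WT difference of response. That difference at 2 h was called for 252 genes with no filter and 104 after quantile normalization, and without replicate 1 in every group for 988 genes at 2 h and 829 at 4 h. Leaving out 1 library at a time gave 70 to 379 genes at 2 h and 204 to 833 at 4 h for it, and 288 to 729 for phenformin against rotenone at 2 h, the lowest without the rotenone library 1. For phenformin against DMSO the range was 5892 to 7883 at 2 h and 8110 to 8800 at 4 h. With only the groups compared in the fit, its counts were lower, at 5423 at 2 h and 7745 at 4 h.

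With the replicate block, 7721 genes were called at 2 h and 9141 at 4 h, and no comparison's count of genes moved by more than 1.5 times; 3 of the counts of list members did, all rises at 2 h, to 5 glycolysis genes, 2 AMPK subunits and 2 complex I subunits. PPARGC1A at 2 h was 0.08 under quantile normalization, against -0.14 on the deposited TPM, and PRKAA1 at 4 h was -0.00 without replicate 1 in every group, against 0.17; the cause was not tested. Differences of named genes were counted once for each comparison and alternative. Of these, 12877 kept their side of the threshold, called or not called. Another 411 lost their call, 183 gained one and 2 changed sign. Groups of 3 libraries, a DMSO group at 0 h alone and TPM of unknown depth limit small differences and lowly expressed genes most.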
